A study of Homo sapiens with 9 samples.

Results

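The genes described here are 43 that encode the transcription machinery of ribosomal DNA and the proteins that fold, modify and assemble ribosomal RNA (rRNA) in the nucleolus. They were taken by symbol from the 37118 genes of the deposited table, and all 43 were among the 12394 genes tested, which had a mean of at least 1 FPKM (fragments per kilobase of transcript, scaled to sequencing depth) over the 9 libraries. RNA sequencing had been done on A375, an established human melanoma line that carries an activating BRAF mutation, labelled wild type in genotype. Metformin, a biguanide used against diabetes, was given at 0, 20 or 40 mM, and each dose is represented by 3 libraries. Neither labels nor files give the treatment time or the culture conditions. The design has 1 cell line, and the labels do not state whether libraries of a dose came from separate cultures. The p-values therefore measure the spread between libraries, which may be technical. In the deposited annotation 41 of the 43 genes carry the Gene Ontology term for the nucleolus, 28 the term for rRNA processing and 42 at least 1 of the 2 terms. Their mean FPKM ran from 6.69 to 583.8, and the smallest count of any of them in any library was 2354.

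Ribosomes are made in the nucleolus. RNA polymerase I (Pol I) transcribes the long rRNA precursor there, with the factors UBTF, SL1 and RRN3 bringing it to the promoter. Small nucleolar ribonucleoproteins (snoRNPs) then modify the precursor, those of the box C/D class by methylation and those of the box H/ACA class by pseudouridylation, while separate sets of assembly factors build the small and the large ribosomal subunit. Many of these genes are known targets of the transcription factor MYC, which binds the E-box CACGTG with its partner MAX, and the pathway is known for its activity in growing tumour cells. The libraries were made from polyadenylated RNA, so the values below are levels of the mRNAs for these proteins, and rRNA itself was not measured.

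The E-box is shown first because it recurs near the start of these genes, among genes that fell and among genes that were not called. RefSeq promoter windows (GRCh38.p14, 250 bases before to 50 after each start) were matched for 36 of the 43 genes. CACGTG, which is its own reverse complement and so reads the same on both strands, occurred in 16 of the 36 (44.4%), against 7.26% of 35116 windows of all genes and 13.1% of the 8887 tested genes that had a window. Here and for the motifs below, shares of genes count a match in any window of a gene. Shares of windows count each window singly, so only the tested genes were counted in the same way. Each sequence below is written 5' to 3' on the strand of its gene, with CACGTG in capitals.
UTP4: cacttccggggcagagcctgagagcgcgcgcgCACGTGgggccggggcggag
UTP20: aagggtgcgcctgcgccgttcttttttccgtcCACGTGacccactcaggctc
GNL3: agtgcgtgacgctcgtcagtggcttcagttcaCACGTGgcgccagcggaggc
PES1: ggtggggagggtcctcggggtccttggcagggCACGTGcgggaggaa
FBL: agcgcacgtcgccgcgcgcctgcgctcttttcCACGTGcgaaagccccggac
NOP10: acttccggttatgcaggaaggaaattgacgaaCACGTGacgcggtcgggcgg
NOP14: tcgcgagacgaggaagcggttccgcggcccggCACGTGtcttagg
PNO1: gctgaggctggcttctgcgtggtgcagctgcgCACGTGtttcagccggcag
The stretches lie at chr16:69132601-69132652 (+) for UTP4, chr12:101280063-101280114 (+) for UTP20, chr3:52686006-52686057 (+) for GNL3, chr22:30591883-30591929 (-) for PES1 and chr19:39846354-39846405 (-) for FBL, genes that fell at both doses. Those of genes called at neither dose lie at chr15:34343128-34343179 (-) for NOP10, chr4:2963379-2963423 (-) for NOP14 and chr2:68157865-68157915 (+) for PNO1. Counting the first transcribed base as 1 and the base before it as -1, the first base of CACGTG stood at -16 in UTP4, -10 in UTP20, 7 in GNL3, 14 in PES1, 7 in FBL, -11 in NOP10, 16 in NOP14 and 10 in PNO1. The NOP10 window held a further match at -170, which is not shown above.

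Of the 18 E-boxes in the 46 windows of these genes, 16 (88.9%) began within 50 bases of the start, against 568 of 1426 (39.8%) in the windows of tested genes. The ETS motif CCGGAAG was in 16 of the 36 genes (44.4%), against 10.3% of all windows and 24.3% of tested genes. CACGCG was in 12 (33.3%), against 11.4% and 23.0%, and the palindromic NRF1 motif in 2 (5.56%), against 1.24% and 2.76%, each searched on both strands. None of the 18 E-boxes overlapped a match of the other 3 motifs, 0 in all. These matches describe letters in a window and do not show that a factor was bound.

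Library totals ran from 65738242 to 75629413 counts. Replicate 3 of 40 mM had the lowest total, and its score on principal component 2 was -22.6, against 17.7 and 15.2 in the other 2 of its dose. Of 8 melanocyte markers SOX10, S100B and MITF had a mean of at least 1 FPKM, while the pigment genes PMEL, MLANA, TYR, DCT and TYRP1 did not. S100B averaged 10.2 FPKM at 0 mM, 8.79 at 20 mM and 5.98 at 40 mM and was called lower at 40 mM (-0.80, adjusted p = 0.0008). SOX10 averaged 104, 97.7 and 85.5 FPKM and was not called at 40 mM (adjusted p = 0.057), where replicates 1, 2 and 3 measured 70.7, 78.0 and 108.0 FPKM. Summed over the list, melanocyte markers came to 105.2 to 130.2 FPKM at 0 mM, 105.7 to 113.3 at 20 mM and 79.9 to 118.2 at 40 mM. Summed markers of blood cells came to 3.65 to 4.38 FPKM at 0 mM, 10.8 to 12.9 at 20 mM and 15.0 to 22.2 at 40 mM, nearly all of it CD68, which rose, while PTPRC, CD3E and CD79A averaged under 1 FPKM. In the same order, fibroblast markers summed to 3.16 to 3.84, 3.79 to 4.93 and 5.81 to 6.74 FPKM, with LUM the member above 1. Endothelial markers summed to 2.99 to 3.52, 1.51 to 2.05 and 1.71 to 2.02 FPKM, with KDR the member above 1. Keratinocyte markers summed to 22.95 to 26.6, 26.4 to 27.2 and 30.7 to 32.5 FPKM, of KRT14 and KRT10 with KRT5 under 1. Simple epithelial markers summed to 70.9 to 74.7, 78.2 to 80.8 and 70.2 to 92.3 FPKM, of KRT18 and KRT8 with EPCAM and CDH1 under 1. The part of these genes in the results below was not tested.

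At 20 mM against 0 mM, 20 of the 43 genes (46.5%) fell and TCOF1 alone rose, while 31.6% of all tested genes were called, 15.2% lower and 16.3% higher. The median log2 fold change of the 43 was -0.14 (range -0.52 to 0.12), against 0.00 over all tested genes, and 37 of the 43 had a value below 0. At 40 mM against 0 mM 24 fell (55.8%) and 2 rose, POLR1E and TCOF1, while 56.2% of all tested genes were called, 27.4% lower and 28.8% higher. Here the median was -0.18 (range -0.95 to 0.15), again against 0.00 over all tested genes. Calls needed an adjusted p under 0.05 from edgeR's quasi-likelihood test with Benjamini-Hochberg adjustment over the 12394 genes in a fit of all 9 libraries. Changes are log2 fold changes ± SE with n = 3 per dose. Both comparisons share the 0 mM libraries. In 18 genes the level fell at both doses. NOP2 and WDR74 were called lower at 20 mM and not at 40 mM, and the reverse held for BYSL, DDX21, LAS1L, MRTO4, NOB1 and WDR12. The FPKM of all 3 libraries lay below those at 0 mM in 27 of the 43 at 20 mM and in 25 at 40 mM, where 24.9% and 26.8% of tested genes did so. They lay above in 1 at 20 mM and 2 at 40 mM, against 25.6% and 34.4% of tested genes. When each library was left out in turn, 15 of the 20 falls at 20 mM and 20 of the 24 at 40 mM were called in all 9 fits, and none of the rises was.

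Replicate 3 of 40 mM, the library that stood apart from its group, held the lowest value of its dose in 29 of the 43 genes (67.4%), against 42.5% of tested genes. The replicates numbered 3 of the other doses also held the lowest value more often than in tested genes. They did so in 24 of the 43 at 0 mM (55.8%, against 32.6%) and 23 at 20 mM (53.5%, against 34.9%). The median log2 ratio of the 43 to the 0 mM mean was -0.12, -0.17 and -0.15 in replicates 1, 2 and 3 at 20 mM and -0.09, -0.13 and -0.16 at 40 mM. Without replicate 3 of 40 mM 24 genes were called lower at 20 mM, 22 at 40 mM and 12 between the doses, and 1, 5 and 3 were called higher. The 3 added at 40 mM were RRN3, NOP10 and PNO1. Calls over all tested genes also became more numerous without that library. They were 4966 at 20 mM, 7135 at 40 mM and 4065 between the doses, against 3911, 6962 and 3637 with it.

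**Figure D1:**
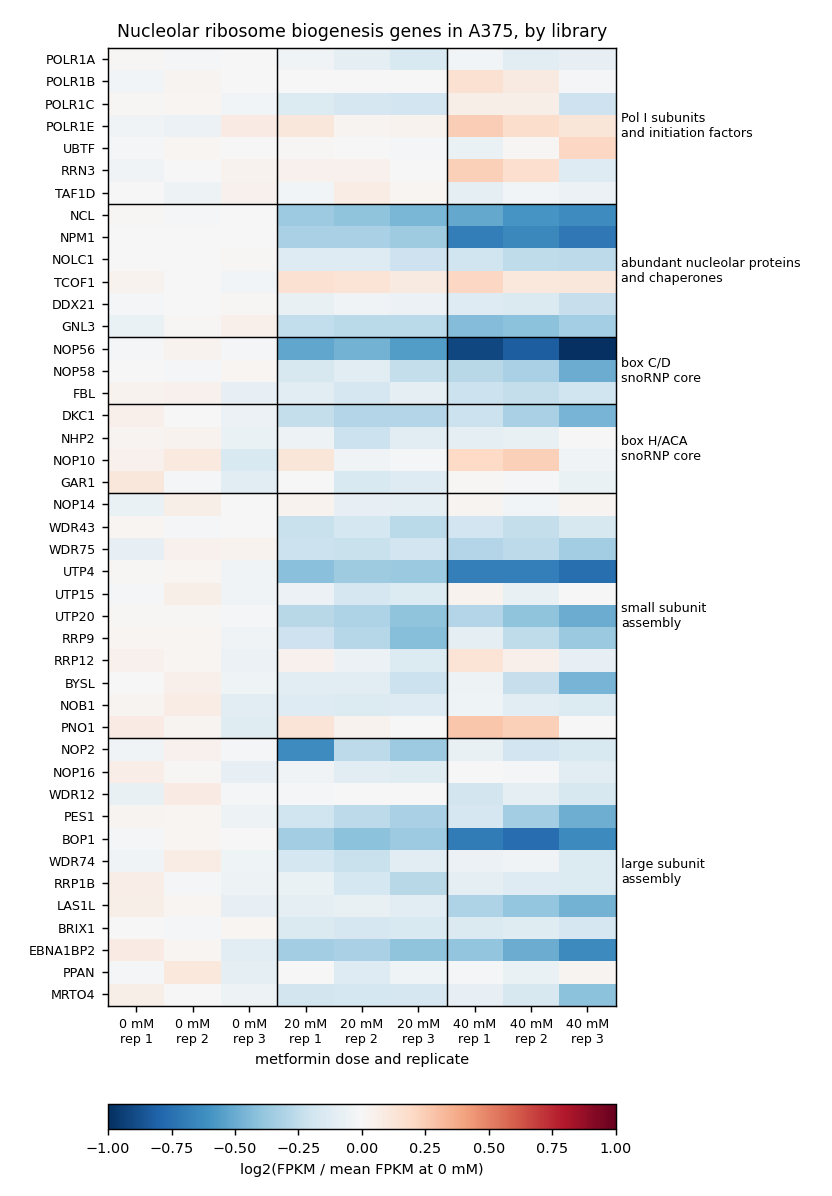
Heat map of log2(FPKM / mean FPKM at 0 mM) for the 43 genes (rows, grouped by role) in the 9 libraries (columns, by dose and replicate); blue is lower and red higher than the 0 mM mean. NCL, NPM1, NOP56, UTP4 and BOP1 are blue in all 6 treated libraries and darker at 40 mM, while the 7 Pol I genes at the top stay pale.

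**Figure D2:**
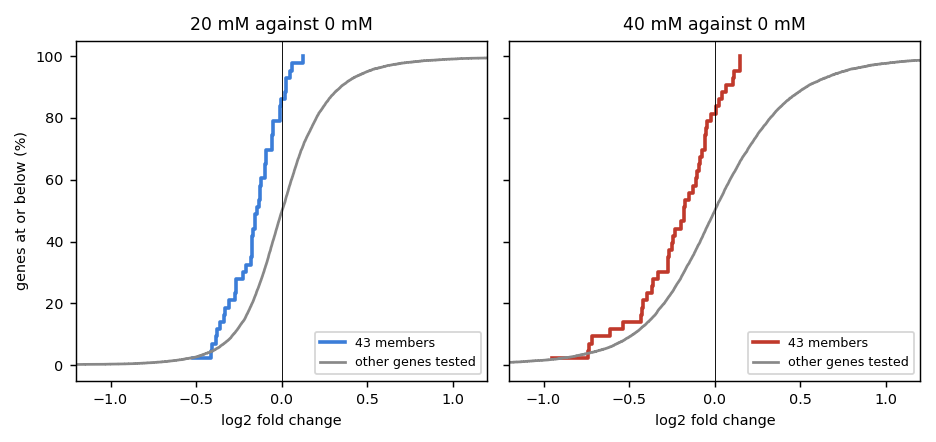
Cumulative share of genes (vertical axis, %) at or below each log2 fold change (horizontal axis) at 20 and at 40 mM against 0 mM, for the 43 genes (coloured) and the other tested genes (grey). The coloured curves begin at -0.52 and -0.95, inside the longer lower tail of the grey ones, cross 50% at -0.14 and -0.18, against 0.00 for all tested genes, and end at 0.12 and 0.15.

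Of the 7 genes of the Pol I machinery none was called at 20 mM (0 lower, 0 higher), and at 40 mM POLR1E rose and the other 6 were not called, with median log2 fold changes of -0.01 and 0.02. Among all tested genes 15.2% were called lower and 16.3% higher at 20 mM, and 27.4% and 28.8% at 40 mM. Whether the 7 genes differ from these shares was not tested. Gene positions are given as the deposited table lists them, without a stated genome build. POLR1A is the largest catalytic subunit (ENSG00000068654, chromosome 2, 86020216 to 86106155). It measured 10.7, 10.4 and 10.6 FPKM at 0 mM, 10.3, 9.89 and 9.52 at 20 mM, and 10.4, 9.85 and 9.98 FPKM at 40 mM. All 6 treated libraries lay below the 3 at 0 mM, by a margin that did not pass the test (-0.10 ± 0.04, adjusted p = 0.11 at 20 mM; -0.10 ± 0.04, adjusted p = 0.059 at 40 mM). POLR1E is a subunit particular to Pol I (ENSG00000137054, chromosome 9, 37485948 to 37503697). It measured 20.8, 20.4 and 22.5 FPKM at 0 mM, 23.0, 21.6 and 21.8 at 20 mM, and 25.2, 24.0 and 23.1 FPKM at 40 mM. Its 40 mM libraries were all above those of the other doses, and it rose at 40 mM by 0.15 ± 0.05 (adjusted p = 0.030), with 0.06 ± 0.05 (adjusted p = 0.44) at 20 mM. That call was lost without replicate 1 or 2 of 0 mM or replicate 1 or 2 of 40 mM (adjusted p = 0.056 to 0.12).

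UBTF is a factor that binds along active ribosomal DNA (ENSG00000108312, chromosome 17, 44205033 to 44221626). It measured 22.9, 23.4 and 23.1 FPKM at 0 mM, 23.2, 23.0 and 22.9 at 20 mM, and 22.1, 23.3 and 26.7 FPKM at 40 mM. Only replicate 3 of 40 mM stood out, and the changes were -0.01 ± 0.06 and 0.02 ± 0.06 (adjusted p = 0.95 and 0.75 at 20 and 40 mM). RRN3 is the factor that joins Pol I to the promoter (ENSG00000085721, chromosome 16, 15060033 to 15094311). It measured 23.5, 24.0 and 24.6 FPKM at 0 mM, 24.8, 24.8 and 24.0 at 20 mM, and 28.4, 27.0 and 22.0 FPKM at 40 mM. Replicates 1 and 2 of 40 mM were the highest of the 9 libraries and replicate 3 the lowest, and the change at 40 mM was 0.07 ± 0.08 (adjusted p = 0.48), or 0.17 (adjusted p = 0.0035) without replicate 3. The table also lists 4 RRN3 pseudogenes by name, with which reads could be shared. TAF1D is a subunit of SL1 (ENSG00000166012, chromosome 11, 93729948 to 93784391). It measured 26.2, 25.1 and 26.9 FPKM at 0 mM, 25.6, 27.4 and 26.4 at 20 mM, and 24.4, 25.6 and 25.1 FPKM at 40 mM, groups that overlap (0.02 ± 0.04, adjusted p = 0.76; -0.09 ± 0.04, adjusted p = 0.091). POLR1B, the other large catalytic subunit, had -0.01 ± 0.04 and 0.04 ± 0.04 (adjusted p = 0.91 and 0.45). POLR1C, shared with RNA polymerase III, had -0.17 ± 0.07 and -0.06 ± 0.07 (adjusted p = 0.073 and 0.48). A left-out library moved 2 further calls: POLR1A was called lower at 40 mM without its replicate 1 (-0.13, adjusted p = 0.045), and POLR1C lower at 20 mM without replicate 3 of 40 mM (-0.17, adjusted p = 0.0058).

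**Figure D3:**
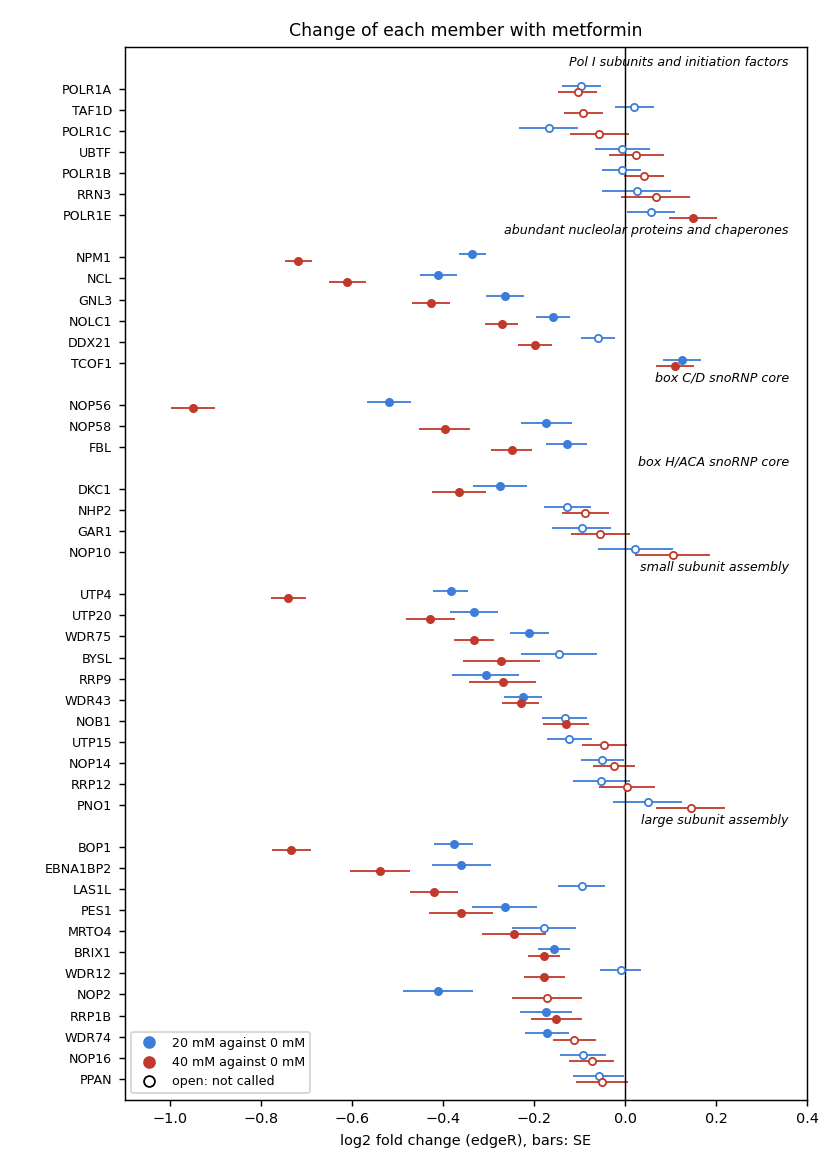
Log2 fold change (horizontal axis, edgeR) of each of the 43 genes at 20 mM (blue) and 40 mM (red) against 0 mM, grouped by role; bars are the SE, filled points were called and open points were not. The 7 Pol I genes lie between -0.17 and 0.15, while NOP56 reaches -0.95, UTP4 -0.74, BOP1 -0.73 and NPM1 -0.72 at 40 mM.

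Of the 6 genes grouped as abundant nucleolar proteins and chaperones, 4 fell and 1 rose at 20 mM, and 5 fell and 1 rose at 40 mM, with medians of -0.21 and -0.35. The falls are 66.7% and 83.3% of the group, against 15.2% and 27.4% of all tested genes. The rise is 16.7% at each dose, against 16.3% and 28.8%. NPM1 is nucleophosmin, a chaperone of the outer nucleolar layer (ENSG00000181163, chromosome 5, 171387116 to 171411137). It had the highest level of the 43, with 722, 728 and 725 FPKM at 0 mM, 579, 579.8 and 567 at 20 mM, and 449, 463 and 441 FPKM at 40 mM. The 3 dose groups did not overlap, and NPM1 fell by 0.34 ± 0.03 at 20 mM and 0.72 ± 0.03 at 40 mM (adjusted p = 2.2e-05 and 4.3e-08). Its 22 pseudogenes listed by name could share reads with it, so the size of its level is less certain than that of single-copy genes. NCL is nucleolin, an RNA-binding protein of pre-rRNA (ENSG00000115053, chromosome 2, 231453531 to 231483641). It measured 180.3, 177 and 177.5 FPKM at 0 mM, 138, 135 and 129.9 at 20 mM, and 125, 118.5 and 115 FPKM at 40 mM. It too stepped down without overlap, by 0.41 ± 0.04 and 0.61 ± 0.04 (adjusted p = 4.5e-05 and 8e-07).

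GNL3 is the GTP-binding protein nucleostemin (ENSG00000163938, chromosome 3, 52681156 to 52694459). It measured 59.5, 62.9 and 64.5 FPKM at 0 mM, 52.6, 51.5 and 51.6 at 20 mM, and 46.2, 46.9 and 49.2 FPKM at 40 mM. All libraries of a higher dose lay under those of a lower dose, and GNL3 fell by 0.26 ± 0.04 and 0.43 ± 0.04 (adjusted p = 0.00093 and 1.1e-05). NOLC1, a chaperone of snoRNPs, fell by 0.16 ± 0.04 and 0.27 ± 0.04 (adjusted p = 0.0086 and 1.1e-04). DDX21, an RNA helicase, had -0.06 ± 0.04 at 20 mM (adjusted p = 0.24) and fell by 0.20 ± 0.04 at 40 mM (adjusted p = 8.4e-04). TCOF1, treacle, which organises ribosomal DNA transcription (ENSG00000070814, chromosome 5, 150357629 to 150400308), was the exception in this group. It measured 29.9, 29.1 and 28.7 FPKM at 0 mM, 32.5, 32.1 and 31.2 at 20 mM, and 33.8, 31.4 and 31.7 FPKM at 40 mM, all 6 treated libraries above the 3 at 0 mM. The rises were 0.12 ± 0.04 and 0.11 ± 0.04 (adjusted p = 0.043 at each dose). The call at 20 mM was lost without replicate 2 or 3 of 0 mM or any library of 20 mM (adjusted p = 0.062 to 0.13). That at 40 mM was lost without replicate 2 or 3 of 0 mM, any library of 20 mM or replicate 1 of 40 mM (adjusted p = 0.054 to 0.16). TCOF1 overlaps CD74 on the opposite strand, which had a mean of 221 FPKM, and whether counting used the strand is not given. CD74 had 0.04 (adjusted p = 0.74) at 20 mM and -0.18 (adjusted p = 0.049) at 40 mM.

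All 3 core proteins of the box C/D snoRNPs were called lower at both doses, with medians of -0.17 and -0.40, while 15.2% of all tested genes were called lower at 20 mM and 27.4% at 40 mM. NOP56 is a scaffold of the particle (ENSG00000101361, chromosome 20, 2652593 to 2658393). It measured 65.4, 67.7 and 65.4 FPKM at 0 mM, 46.1, 47.7 and 44.98 at 20 mM, and 35.1, 37.3 and 32.7 FPKM at 40 mM. Its 3 dose groups were far apart, and its falls of 0.52 ± 0.05 and 0.95 ± 0.05 (adjusted p = 2.8e-05 and 1.4e-07) were the largest of the 43 genes at each dose. NOP58 is its paired scaffold (ENSG00000055044, chromosome 2, 202265736 to 202303433). It measured 46.5, 45.9 and 47.0 FPKM at 0 mM, 41.6, 42.9 and 39.4 at 20 mM, and 38.4, 37.1 and 32.9 FPKM at 40 mM. The groups did not overlap, and it fell by 0.17 ± 0.06 and 0.40 ± 0.06 (adjusted p = 0.037 and 1.4e-04). FBL, fibrillarin, the methyltransferase, fell by 0.13 ± 0.04 and 0.25 ± 0.04 (adjusted p = 0.048 and 7e-04). At 20 mM the NOP58 call was lost without any 1 of the 6 libraries at 0 and 20 mM (adjusted p = 0.052 to 0.13). The FBL call was lost in 7 of the 9 fits, all but those without replicate 3 of 0 mM or of 40 mM (adjusted p = 0.057 to 0.17). Without replicate 1 or 2 of 0 mM or any library of 20 mM, 1 of the 3 genes was thus called at 20 mM.

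In the box H/ACA snoRNPs 1 of 4 core genes fell at both doses (25.0%, against 15.2% of all tested genes at 20 mM and 27.4% at 40 mM), and medians were -0.11 and -0.07. DKC1 is dyskerin, the pseudouridine synthase (ENSG00000130826, chromosome X, 154762742 to 154777688). It measured 65.2, 63.1 and 60.5 FPKM at 0 mM, 53.3, 51.5 and 51.4 at 20 mM, and 54.3, 50.3 and 45.6 FPKM at 40 mM. Every treated library was below every 0 mM library while the treated doses overlapped, and DKC1 fell by 0.28 ± 0.06 and 0.36 ± 0.06 (adjusted p = 0.0054 and 3.7e-04). NHP2 is an RNA-binding subunit (ENSG00000145912, chromosome 5, 178149463 to 178153885). It measured 115.7, 115.9 and 108 FPKM at 0 mM, 109, 97.7 and 104.9 at 20 mM, and 106.7, 107.9 and 113 FPKM at 40 mM. These groups overlapped, and NHP2 was not called (-0.13 ± 0.05, adjusted p = 0.082; -0.09 ± 0.05, adjusted p = 0.17). NOP10, a small subunit of the particle, had 0.02 ± 0.08 and 0.10 ± 0.08, and GAR1, which joins after assembly, had -0.10 ± 0.07 and -0.05 ± 0.07, none of them called. Without replicate 3 of 40 mM, NHP2 was called lower at 20 mM (-0.13, adjusted p = 0.047) and NOP10 higher at 40 mM (0.18, adjusted p = 0.048).

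**Figure D4:**
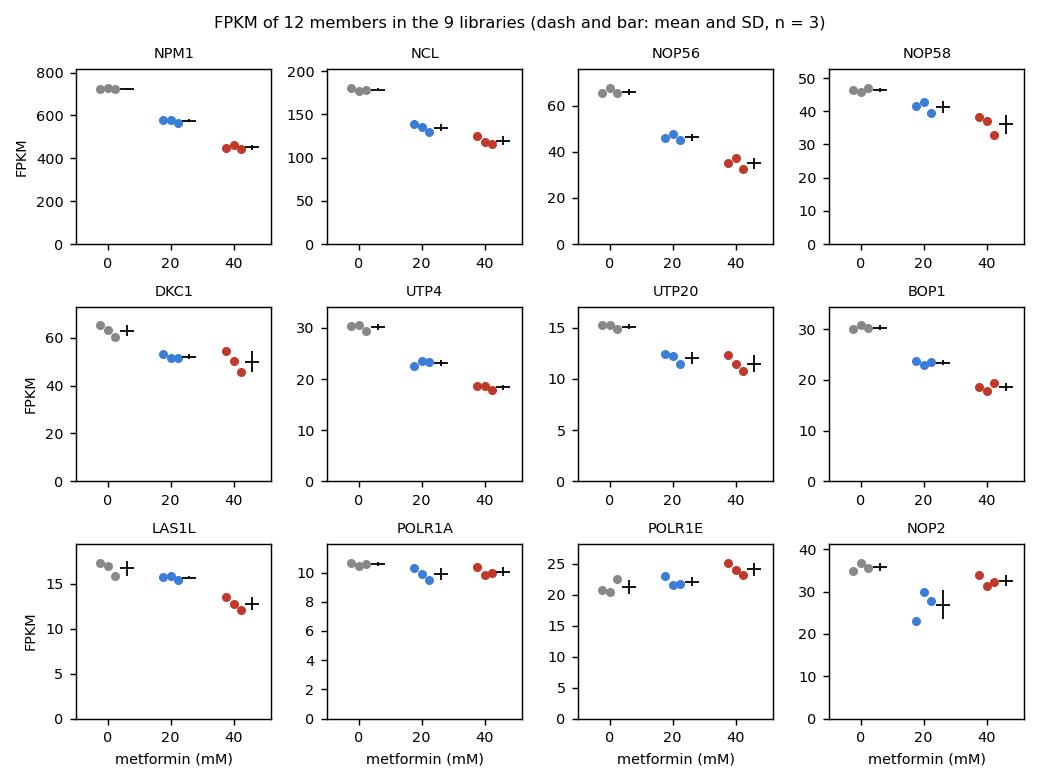
FPKM (vertical axes, from 0) of 12 of the genes at 0, 20 and 40 mM metformin; points are the 3 libraries of a dose, and dash and bar are their mean and SD. NPM1, NCL, NOP56, NOP58, UTP4 and BOP1 step down at each dose without overlap, POLR1A lies between 9.52 and 10.7, and NOP2 is lowest at 20 mM.

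Among the 11 small subunit factors 5 fell at 20 mM and 7 at 40 mM, none rose, and medians were -0.14 and -0.23. The falls are 45.5% and 63.6% of these factors, against 15.2% and 27.4% of all tested genes, of which 16.3% and 28.8% rose. UTP4 belongs to the complex that binds the nascent precursor first (ENSG00000141076, chromosome 16, 69131291 to 69231130). It measured 30.3, 30.5 and 29.4 FPKM at 0 mM, 22.5, 23.5 and 23.3 at 20 mM, and 18.7, 18.7 and 17.9 FPKM at 40 mM. The groups did not overlap, and it fell by 0.38 ± 0.04 and 0.74 ± 0.04 (adjusted p = 5.4e-05 and 1.7e-07). CHTF8, which UTP4 overlaps on the opposite strand, fell by 0.45 and 0.81 (adjusted p = 0.026 and 0.00043). SNTB2, which it overlaps on the same strand, had 0.12 (adjusted p = 0.081) and rose by 0.27 at 40 mM (adjusted p = 0.00063). Shared reads leave the size of the UTP4 change uncertain. UTP20 is a long scaffold protein (ENSG00000120800, chromosome 12, 101280105 to 101386618). It measured 15.2, 15.2 and 14.9 FPKM at 0 mM, 12.5, 12.2 and 11.4 at 20 mM, and 12.3, 11.4 and 10.7 FPKM at 40 mM. The treated libraries lay below all 0 mM libraries and overlapped each other, with falls of 0.33 ± 0.05 and 0.43 ± 0.05 (adjusted p = 0.0011 and 6e-05). WDR75 is a partner of UTP4 (ENSG00000115368, chromosome 2, 189441446 to 189475552). It measured 13.9, 15.1 and 15.1 FPKM at 0 mM, 12.6, 12.6 and 12.9 at 20 mM, and 12.01, 12.3 and 11.5 FPKM at 40 mM. It stepped down without overlap, by 0.21 ± 0.04 and 0.33 ± 0.04 (adjusted p = 0.0042 and 7.9e-05).

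WDR43, of the same early complex, fell by 0.22 ± 0.04 and 0.23 ± 0.04 (adjusted p = 0.0022 and 6.7e-04). UTP15, also of that complex, had -0.12 ± 0.05 and -0.05 ± 0.05 and was not called. RRP9, a protein of the snoRNP that guides the early cleavages, fell by 0.31 ± 0.07 and 0.27 ± 0.07 (adjusted p = 0.0092 and 0.0088). BYSL, bystin, a late maturation factor, had -0.15 ± 0.08 at 20 mM (adjusted p = 0.22) and fell by 0.27 ± 0.08 at 40 mM (adjusted p = 0.017). NOB1, the nuclease of the last cleavage, had -0.13 ± 0.05 at 20 mM (adjusted p = 0.066) and was called lower at 40 mM (-0.13 ± 0.05, adjusted p = 0.046), while its partner PNO1 had 0.05 ± 0.08 and 0.14 ± 0.08 and was not called. NOP14, of the processome, had -0.05 ± 0.05 and -0.02 ± 0.05, and RRP12, an export factor, had -0.05 ± 0.06 and 0.00 ± 0.06, neither called. The BYSL call was lost without replicate 2 of 0 mM (adjusted p = 0.057). The NOB1 call at 40 mM was lost in 7 of the 9 fits, all but those without replicate 3 of 0 mM or replicate 1 of 40 mM (adjusted p = 0.063 to 0.17). NOB1 was called lower at 20 mM without replicate 3 of 0 mM or of 40 mM (adjusted p = 0.014 and 0.041). PNO1 was called higher at 40 mM without replicate 3 of that dose (0.22, adjusted p = 0.011).

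Of the 12 large subunit factors 7 fell at 20 mM and 8 at 40 mM, none rose, all 12 had values below 0 at both doses, and medians were -0.17 and -0.18. The falls are 58.3% and 66.7% of these factors, against 15.2% and 27.4% of all tested genes, of which 16.3% and 28.8% rose. BOP1 (ENSG00000261236), of the PES1, BOP1 and WDR12 complex, measured 29.9, 30.8 and 30.3 FPKM at 0 mM, 23.8, 22.9 and 23.5 at 20 mM, and 18.6, 17.9 and 19.5 FPKM at 40 mM. The groups did not overlap, and BOP1 fell by 0.38 ± 0.04 and 0.73 ± 0.04 (adjusted p = 1.2e-04 and 3.4e-07). PES1 fell by 0.26 ± 0.07 and 0.36 ± 0.07 (adjusted p = 0.016 and 0.0013). WDR12 had -0.01 ± 0.05 at 20 mM (adjusted p = 0.89) and fell by 0.18 ± 0.05 at 40 mM (adjusted p = 0.0066). EBNA1BP2 is an early assembly factor (ENSG00000117395, chromosome 1, 43164175 to 43261910). It measured 63.4, 60.9 and 55.6 FPKM at 0 mM, 47.3, 47.9 and 45.4 at 20 mM, and 45.7, 42.5 and 38.7 FPKM at 40 mM. All treated libraries lay below the 0 mM libraries, and it fell by 0.36 ± 0.07 and 0.54 ± 0.07 (adjusted p = 0.0022 and 5e-05). LAS1L is a protein that cuts the spacer next to the large subunit rRNA (ENSG00000001497, chromosome X, 65512582 to 65534787). It measured 17.4, 17.0 and 15.8 FPKM at 0 mM, 15.7, 15.9 and 15.5 at 20 mM, and 13.5, 12.8 and 12.1 FPKM at 40 mM. The 20 mM libraries overlapped those at 0 mM and the 40 mM libraries were lowest, with -0.10 ± 0.05 (adjusted p = 0.19) at 20 mM and a fall of 0.42 ± 0.05 (adjusted p = 5.5e-05) at 40 mM.

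NOP2, an rRNA methyltransferase, was singled out after its values were seen. It measured 35.0, 36.9 and 35.6 FPKM at 0 mM, 23.2, 29.8 and 27.9 at 20 mM, and 34.0, 31.4 and 32.3 FPKM at 40 mM. The 20 mM libraries were the lowest, replicate 1 most of all, with a fall of 0.41 ± 0.08 at 20 mM (adjusted p = 0.0025) and -0.17 ± 0.08 (adjusted p = 0.078) at 40 mM, which was called lower without replicate 1 of 20 mM (adjusted p = 0.010). AC006064, which NOP2 overlaps on the same strand, averaged 1.08 FPKM and was not called (1.73, adjusted p = 0.55 at 20 mM, and -12.05, adjusted p = 0.077 at 40 mM). A part of shared reads in the NOP2 values was not tested. BRIX1, which helps build the large subunit precursor, fell by 0.16 ± 0.04 and 0.18 ± 0.04 (adjusted p = 0.007 and 0.0014). RRP1B had falls of 0.17 ± 0.06 and 0.15 ± 0.06 (adjusted p = 0.039 and 0.042). MRTO4, a relative of the ribosomal stalk protein, had -0.18 ± 0.07 (adjusted p = 0.078) at 20 mM and fell by 0.24 ± 0.07 (adjusted p = 0.012) at 40 mM. WDR74 fell by 0.17 ± 0.05 at 20 mM (adjusted p = 0.019) and had -0.11 ± 0.05 (adjusted p = 0.067) at 40 mM. NOP16 had -0.09 ± 0.05 and -0.07 ± 0.05, and PPAN, which overlaps a readthrough transcript with its neighbour on the same strand, had -0.06 ± 0.06 and -0.05 ± 0.06, neither called. Without replicate 2 of 0 mM or replicate 2 of 20 mM, 4 of the 12 large subunit genes were called lower at 20 mM. At 20 mM PES1 was lost without replicate 1 or 2 of 0 mM or replicate 2 or 3 of 20 mM (adjusted p = 0.051 to 0.065). WDR74 was lost without replicate 2 of 0 mM or replicate 1 or 2 of 20 mM (adjusted p = 0.055 to 0.084), and RRP1B without replicate 1 or 2 of 0 mM, replicate 2 or 3 of 20 mM or replicate 2 of 40 mM (adjusted p = 0.052 to 0.15). At 40 mM RRP1B was lost without replicate 1 or 2 of 0 mM, replicate 2 of 20 mM or any library of 40 mM (adjusted p = 0.057 to 0.16). MRTO4 was lost at 40 mM without replicate 1 of 0 mM (adjusted p = 0.051), and was called lower at 20 mM without replicate 1 or 3 of 40 mM (adjusted p = 0.044 and 0.0052).

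Between the doses, at 40 mM against 20 mM, 11 of the 43 genes fell (25.6%) and NOP2 rose, while 29.3% of all tested genes were called, 15.1% lower and 14.3% higher. The median was -0.01. NOP56 fell further by 0.43 ± 0.05 (adjusted p = 2e-04), NPM1 by 0.38 ± 0.03 (adjusted p = 3.9e-05), UTP4 by 0.36 ± 0.04 (adjusted p = 1.8e-04), BOP1 by 0.36 ± 0.04 (adjusted p = 2.9e-04), LAS1L by 0.32 ± 0.05 (adjusted p = 0.0014) and NCL by 0.20 ± 0.04 (adjusted p = 0.0046). These 6 calls held when any 1 library was left out. NOP58 (-0.22), WDR12 (-0.17), GNL3 (-0.16), DDX21 (-0.14) and NOLC1 (-0.11) were the other 5. NOLC1 was lost without any library of 0 mM, replicate 1 or 2 of 20 mM or replicate 2 of 40 mM (adjusted p = 0.056 to 0.14). DDX21 (adjusted p = 0.07) and NOP58 (adjusted p = 0.059) were lost without replicate 2 of 20 mM, GNL3 without replicate 1 of 40 mM (adjusted p = 0.052). WDR12 was lost without replicate 2 or 3 of 20 mM or replicate 1 of 40 mM (adjusted p = 0.058 to 0.063). Without replicate 2 of 20 mM 7 genes were called lower. The rise of NOP2 by 0.24 ± 0.08 (adjusted p = 0.038) was lost in 6 of the 9 fits, and was 0.14 (adjusted p = 0.074) without replicate 1 of 20 mM. In FPKM, 12 of the 43 lay lower at 40 mM than at 20 mM without overlap and 2 higher, against 18.0% and 25.9% of tested genes. Lower at each step without overlap were 10 genes (23.3%), NCL, NPM1, DDX21, GNL3, NOP56, NOP58, FBL, WDR75, UTP4 and BOP1, against 8.76% of tested genes.

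Summed over the 43 genes, mRNA levels came to 10181 ± 303 TPM (each FPKM as a share of its library's sum) at 0 mM, 8738 ± 206 at 20 mM and 8304.5 ± 409 at 40 mM (SD, n = 3). The sum was 14.2% lower at 20 mM and 18.4% lower at 40 mM than at 0 mM. NCL, NPM1 and NOP56 together held 3853 ± 66.7, 2989 ± 64.3 and 2452 ± 96.2 TPM, and the other 40 genes 6328 ± 241, 5749 ± 149.7 and 5852 ± 318. At 40 mM against 20 mM the 3 summed to less and the other 40 did not. The 3 were not set apart beforehand and were each called lower at that step, so the fall of their sum followed from their choice. UTP4, BOP1 and LAS1L, also called lower at that step, are among the other 40. The Pol I genes summed to 493.5 ± 7.76, 492 ± 8.32 and 521 ± 22.9 TPM, and the box H/ACA core to 1447 ± 106.5, 1361 ± 76.1 and 1465 ± 96.8 TPM, with overlapping libraries at all 3 doses. TPM values are shares of each library's polyadenylated RNA and do not give amounts per cell. In bulk RNA a change in a part of the cells and a change in all of them cannot be told apart.

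**Figure D5:**
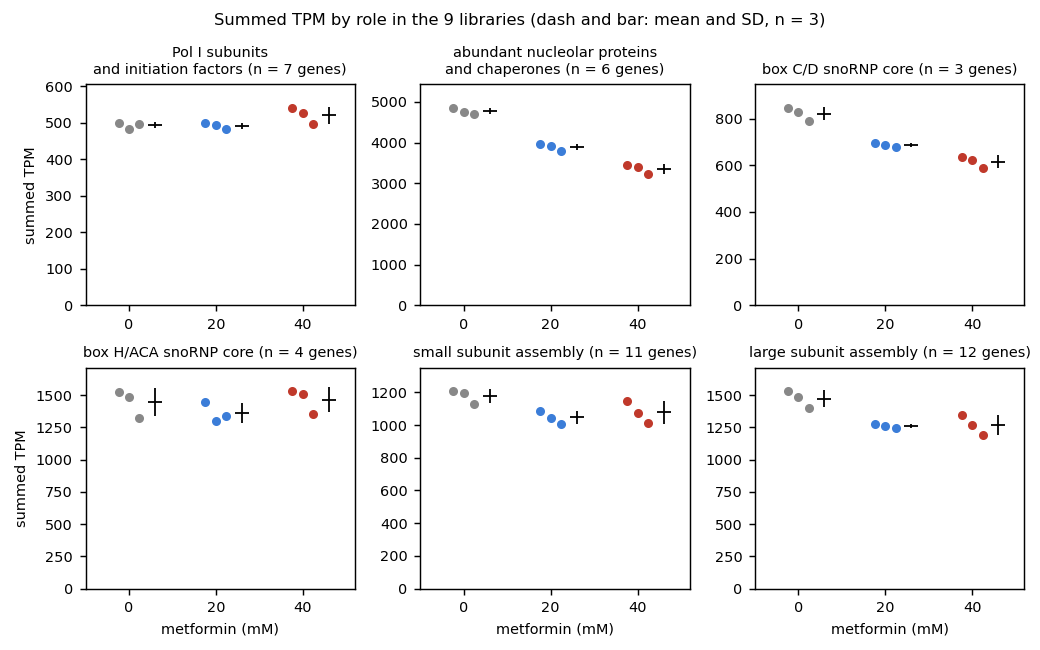
Summed TPM (vertical axes, from 0) of the genes of each role at 0, 20 and 40 mM metformin; points are the 3 libraries of a dose, and dash and bar are their mean and SD. The abundant nucleolar proteins and the box C/D core step down at each dose, the assembly factors have lower means at both treated doses than at 0 mM, and the Pol I and box H/ACA genes overlap between doses.

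Several of these genes carry snoRNA genes within their bounds. In GENCODE release 29, 9 of the 43 hold at least 1 snoRNA or scaRNA gene on their own strand: POLR1C, TAF1D, NCL, GNL3, NOP56, NOP58, DKC1, WDR43 and PPAN. Of these hosts 6 fell at each dose, with medians of -0.22 and -0.37, and of the other 34 genes 14 fell at 20 mM and 18 at 40 mM, with medians of -0.13 and -0.16. Of all tested genes 15.2% were called lower at 20 mM and 27.4% at 40 mM. Of the 16 genes with CACGTG in a promoter window 9 fell at 20 mM and 11 at 40 mM (medians -0.20 and -0.25), and of the 20 with a window but without CACGTG 7 and 9 fell (medians -0.12 and -0.11). NOP56, NCL and NPM1 are among the 20 without it. These splits are counts without a test. MYC itself measured 3.99, 4.42 and 3.85 FPKM at 0 mM, 3.60, 2.76 and 2.42 at 20 mM, and 3.93, 3.29 and 3.33 FPKM at 40 mM. All 20 mM libraries of MYC lay below those at 0 mM while the 40 mM libraries overlapped them, with a fall of 0.49 ± 0.13 at 20 mM (adjusted p = 0.018) and -0.25 ± 0.13 (adjusted p = 0.13) at 40 mM. The MYC call at 20 mM was lost without replicate 2 of 0 mM or replicate 2 or 3 of 20 mM (adjusted p = 0.07, 0.069 and 0.068) and with no filter on FPKM (adjusted p = 0.056). MYC was called lower at 40 mM without replicate 1 of 20 mM (adjusted p = 0.048) and with only the 6 libraries compared (adjusted p = 0.05).

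Beyond the 43, 7 further lists of the pathway were counted. Of their 128 tested genes 41 fell and 11 rose at 20 mM, and 60 fell (46.9%) and 15 rose at 40 mM against 0 mM, with medians of -0.08 and -0.12. Of all tested genes 15.2% were called lower and 16.3% higher at 20 mM, and 27.4% and 28.8% at 40 mM. Leaving out 1 library gave 22 to 48 falls at 20 mM, the count moving by over 1.5 times without replicate 1 or 2 of 0 mM or replicate 3 of 20 mM, and 49 to 64 at 40 mM. Among 14 other Pol I and SL1 genes, counting subunits shared with other polymerases and the terminator factor TTF1, 2 fell at 20 mM and 5 fell and 1 rose at 40 mM, but 0 or 1 fell at 20 mM without any 1 library of 0 or 20 mM and 2 fell at 40 mM without replicate 2 of 0 mM. The 2 falls at 20 mM are 14.3% of the list, near the 15.2% of all tested genes, and the 5 at 40 mM 35.7%, against 27.4%. TAF1B fell by 0.42 ± 0.08 and TTF1 by 0.25 ± 0.05 at 40 mM, while TAF1A rose by 0.26 ± 0.06 (adjusted p = 0.0012, 0.0016 and 0.0056). The Pol I subunit POLR1G was also called lower at 40 mM (-0.63 ± 0.21, adjusted p = 0.023), with libraries that overlapped those at 0 mM. So were the shared subunits POLR2F (-0.18 ± 0.05) and POLR2L (-0.22 ± 0.07, adjusted p = 0.012 and 0.025). Of 34 other small subunit processome genes 13 fell and 2 rose at 20 mM and 18 fell and 4 rose at 40 mM, with IMP4 at -0.64 ± 0.04, UTP14A at -0.47 ± 0.04 and NOL6 at -0.45 ± 0.04 at 40 mM (adjusted p = 9.8e-07, 8.4e-06 and 5e-06). Without replicate 3 of 20 mM 8 processome genes fell at 20 mM. Of 12 late small subunit factors 4 fell and 1 rose at 20 mM and 4 fell and 2 rose at 40 mM, so that 33.3% fell at each dose, against 15.2% and 27.4% of all tested genes. Without replicate 3 of 20 mM 2 fell at 20 mM. At 40 mM LTV1 fell by 0.61 ± 0.04 and TSR1 by 0.48 ± 0.05 while the kinase RIOK3 rose by 0.51 ± 0.05 (adjusted p = 1.2e-06, 2.5e-05 and 1.3e-05).

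Of 38 other large subunit factors 13 fell and 4 rose at 20 mM and 19 fell and 5 rose at 40 mM. The falls at 20 mM numbered 7 to 14 with 1 library left out, fewest without replicate 1 of 0 mM or replicate 3 of 20 mM, and the rises at 40 mM 3 to 5, fewest without replicate 2 of 0 mM or of 40 mM. URB1 fell by 0.62 ± 0.06 and NOC2L by 0.36 ± 0.04 at 40 mM, and the ATPase NVL rose by 0.35 ± 0.04 (adjusted p = 8.4e-06, 3.3e-05 and 5e-05). In the RPL5 and RPL11 particle and its loading factors 1 of 6 genes fell at 20 mM and 4 at 40 mM, among them RRS1 by 0.35 ± 0.04, RPL5 by 0.33 ± 0.07 and RPL11 by 0.21 ± 0.06 (adjusted p = 6.9e-05, 0.0029 and 0.012). Of 10 snoRNP assembly factors 4 fell and 1 rose at each dose (1 to 5 falls at 20 mM with 1 library left out, fewer than 3 without replicate 1 or 2 of 0 mM or any library of 20 mM), with RUVBL1 at -0.51 ± 0.05, PIH1D1 at -0.54 ± 0.07 and ZNHIT6 at 0.52 ± 0.06 at 40 mM (adjusted p = 6.2e-06, 5.4e-05 and 6.1e-05). Of 14 genes of the nuclear exosome, which trims rRNA precursors, 4 fell and 3 rose at 20 mM and 6 fell and 2 rose at 40 mM, with EXOSC4 at -0.69 ± 0.08, DIS3 at -0.43 ± 0.04 and EXOSC6 at 0.49 ± 0.05 (adjusted p = 3.4e-05, 5.3e-06 and 1e-05). The exosome falls are 28.6% and 42.9% of the list and the rises 21.4% and 14.3%, against 15.2% and 27.4% of all tested genes lower and 16.3% and 28.8% higher at 20 and 40 mM. Without replicate 1 or 3 of 0 mM or of 20 mM 2 exosome genes fell at 20 mM. The 21 genes named from these lists for the smallest p at 40 mM were called in all 9 fits with 1 library left out. They were picked from the same libraries, so this outcome was largely fixed by their choice and does not describe the lists. Over the 133 other tested genes annotated to rRNA processing 38 fell (28.6%) and 10 rose at 20 mM and 63 fell (47.4%) and 13 rose at 40 mM. Over the 690 other genes annotated to the nucleolus 157 fell (22.8%) and 81 rose at 20 mM and 271 fell (39.3%) and 147 rose at 40 mM, beside the same shares of all tested genes.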

How the data were processed

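The deposited table gives, per the file headers, read counts and FPKM of 37118 genes in 9 libraries. Counts and FPKM were made by the authors. Per the labels' protocols, total RNA was isolated with TRIzol, polyadenylated RNA captured with oligo(dT) and a strand-specific paired-end library sequenced on an Illumina NovaSeq. Per the submitters' processing notes StringTie 2.1.6 was used. The aligner, genome build, annotation, filters and the strand setting of the counting were not given in the sources used here. Start and end match GENCODE release 29 for 13 of the 43 genes, and 17 of the 43 overlap another tested gene, 12 of them on the opposite strand.

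The 43 genes, the other lists and the markers were chosen with earlier results of these data known, and no list was tested as a set. Genes with a mean of at least 1 FPKM (12394, holding 98.74% of counts) were fitted with edgeR 4.0.16 (quasi-likelihood test, TMM scaling, dose as factor, all 9 libraries) in R 4.3.3. The SE is the size of the log2 fold change over the square root of its F. At 65738242 to 75629413 counts per library, the spread between libraries limits the precision of these genes more than counting error. Values in each library are given for the 3 genes of each role with the smallest p at 40 against 0 mM (2 in roles of under 5 genes), for NCL, NPM1, POLR1A, UBTF and RRN3, and for genes called higher against 0 mM; NOP2 and MYC were added. Up to 3 genes of each other list are named, those with the smallest p at 40 against 0 mM. The remaining Pol I and SL1 genes called lower at 40 mM are named as well. TPM is each FPKM over its library's sum. Promoter windows are RefSeq's (GRCh38.p14). Alternatives were no filter, a filter at 5 FPKM, upper quartile, library total and DESeq2 scaling, DESeq2 1.42.0, limma 3.58.1 on log2(FPKM + 1) and log2(FPKM + 0.1), only the 6 libraries compared, a replicate block, an adjusted p under 0.01 and each library left out. The test was tested on simulated data. No library was a copy of another: the chi-square per degree of freedom between libraries of a dose was 13.02 to 67.11.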

Additional observations from a re-analysis of the deposited data

How the results depend on the processing

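No genome build, strand setting or treatment time was available, and p-values cover the spread between 3 libraries per dose of 1 line. Small changes such as those of POLR1E at 40 mM, TCOF1 at 20 and 40 mM and FBL at 20 mM lie at the threshold. Of 1960 values of single genes over the alternatives 1767 (90.2%) kept their direction and their side of the threshold, 136 were no longer called, 30 became called and 27 changed sign. These values cover the 43 genes at 20 and at 40 against 0 mM. At 40 against 20 mM they cover only genes called in the main fit, so calls gained there are not counted. The number of the 43 called lower was 15 to 24 at 20 mM and 20 to 28 at 40 mM over all alternatives. Deviations from the dose mean correlated between doses by -0.10 to 0.19 for libraries of the same replicate number and by -0.19 to 0.12 for different numbers, ranges that overlap. Replicate 3 was most often the lowest for the 43 at each dose, and whether a replicate number marks a shared batch is not known. With a replicate block 4245, 7215 and 3982 genes were called at 20 against 0, 40 against 0 and 40 against 20 mM, against 3911, 6962 and 3637. Of the 43, 21, 25 and 12 were then lower and 1, 3 and 1 higher. With a filter at 5 FPKM, which tests fewer genes, 2517, 4245 and 2367 were called. At an adjusted p under 0.01, 2167 and 1858 were called at 20 against 0 and 40 against 20 mM, and 6 of the 43 were called lower at 40 against 20 mM. Leaving out 1 library gave 2731 to 4966, 6049 to 7135 and 2408 to 4065 genes; of the 43, 15 to 24, 21 to 24 and 7 to 12 were lower and 0 to 1, 0 to 5 and 0 to 3 higher. The counts of the 43 called higher were 0 with no filter and at 0.01 in all 3 comparisons, 0 with upper quartile scaling at 20 and 40 against 0 mM, and 0 with only the 6 libraries at 40 against 0 and 40 against 20 mM. The cause of these differences was not tested. The changes of sign were all in genes called at neither setting: at 20 against 0 mM, with the 5 FPKM filter and library total scaling, POLR1B (0.0071, 0.0075), UBTF (0.0090, 0.0094) and WDR12 (0.0054, 0.0058); at 40 against 0 mM with library total scaling NOP14 (0.0275), UTP15 (0.0061) and PPAN (0.0008), NOP14 with limma (0.0097, 0.0099), and RRP12 with no filter and upper quartile scaling (-0.0097, -0.0160). Leaving out 1 library, values spanned 0 at 20 against 0 mM for TAF1D -0.0101 to 0.0439, NOP10 -0.0516 to 0.0687, PNO1 -0.0085 to 0.1016, WDR12 -0.0368 to 0.0299, and at 40 against 0 mM for POLR1C -0.0993 to 0.0231, UBTF -0.0607 to 0.0823, RRN3 -0.0069 to 0.1675, GAR1 -0.1123 to 0.0144, NOP14 -0.0479 to 0.0030, RRP12 -0.0459 to 0.0562.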
